A study of Mus musculus with 12 samples.

Results

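The double knockdown of Hnf4a and Cebpa in primary mouse hepatocytes was compared with the sum of the effects of its single knockdowns. For each gene the departure from additivity was the log2 level in the double knockdown, minus that in siHnf4a, minus that in siCebpa, plus that in the control. A departure of 0 means that the fold changes of the single knockdowns multiply in the double knockdown. A positive departure means more transcript than that product and a negative one means less. All 15090 genes that passed a low-count filter were used, of 55385 in the files, and all 12 libraries entered the contrast. Hepatocytes from 3 mice were kept in culture and given siRNAs, short RNA duplexes that lower a matching transcript, for 48 h. Every mouse gave 1 library to each of 4 groups, which received a control siRNA (siCon), siHnf4a, siCebpa, or siHnf4a and siCebpa together (double knockdown). The medium of all 4 groups held 100 nM dexamethasone, 10% fetal bovine serum, 2 mM glutamine and 5% ITS. The sources used here do not state the strain, age and sex of the mice or the siRNA doses and sequences, so it is not known whether the total siRNA was matched between single and double transfections. The title of the series is about keeping albumin transcription stable.

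HNF4A, a nuclear receptor, and C/EBPA, of the leucine zipper family, are DNA-binding factors that keep adult hepatocytes differentiated. In liver they bind near many of the same genes, among them genes for secreted plasma proteins, lipoproteins and metabolic enzymes. C/EBPA is also known to restrain hepatocyte proliferation.

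Totals were 22453445 to 25008195 estimated counts per library, and 14081 to 14459 genes reached 10 counts in a library. Values below are counts-per-million (CPM) scaled between libraries, given in the order of mice 1, 2 and 3. The 15 hepatocyte markers all passed the filter and summed to 13568 to 15686 CPM in siCon, although Cyp2e1, a pericentral cytochrome P450, was at 0.685 to 2.66 CPM there. Markers of T and NK cells (1 of 12 tested), B cells (2 of 8) and neutrophils (1 of 10) each summed to under 5 CPM in every library. Markers of Kupffer cells and macrophages (14 of 16 tested, Timd4 and Cd5l below the filter) summed to between 85.4 and 265 CPM in siCon, between 97.6 and 424 with siHnf4a, between 61.3 and 371 with siCebpa and between 94.3 and 356 with both. Cd68, which other cells also express, made up 74.7% to 98.5% of these sums.

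The siRNA targets were read first. The CPM of Cebpa were 179, 211 and 189 in siCon, 206, 204 and 234 with siHnf4a, 33.7, 30.3 and 26.1 with siCebpa and 109, 88.98 and 84.5 with both siRNAs. The siCebpa libraries were the lowest and the double knockdown libraries lay between them and the rest, with no overlap. Relative to siCon, Cebpa stood at 15.6% in siCebpa and at 48.8% in the double knockdown. Cebpa departed by 1.49 ± 0.17 (SE) log2 (adjusted p = 0.00286), and it was 1.49, 1.60 and 1.39 in mice 1, 2 and 3. The Cebpa transcript was thus lowered less in the double knockdown than in siCebpa alone, and the part of this difference in the departures of other genes was not tested. Gm45091 overlaps Cebpa on the opposite strand and the sources used here do not state whether counting used the strand. In siCon Hnf4a was at 144, 248 and 297 CPM, with siHnf4a at 56.7, 59.2 and 46.4, with siCebpa at 191, 149 and 293 and with both at 40.1, 33.5 and 34.1. Both groups with siHnf4a lay below both groups without it. For Hnf4a the departure came to -0.47 ± 0.36 log2 (adjusted p = 0.514), so no departure was called for Hnf4a. In bulk RNA, fewer cells of a type and less RNA per cell cannot be told apart.

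Alb was at 9787, 7754 and 6174 CPM in siCon, at 10802, 9500.3 and 5202 with siHnf4a, at 13907, 6688 and 6043 with siCebpa and at 7602, 4569 and 4189 with both siRNAs. In each mouse the double knockdown library was the lowest of the 4, while the groups overlapped across mice. Alb, which encodes serum albumin, stood in the double knockdown at -0.56 log2 relative to siCon, beside 0.07 in siHnf4a (adjusted p = 0.77) and 0.10 in siCebpa (adjusted p = 0.73). The departure of Alb was -0.73 ± 0.23 log2 (adjusted p = 0.106), and it was -1.01, -0.84 and -0.28 in the 3 mice. The departure of Alb had one sign in all mice and missed the threshold, except with no filter on low counts, where it was -0.72 (adjusted p = 0.000995, in a range of 0.000995 to 0.68 over the alternatives).

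**Figure D1:**
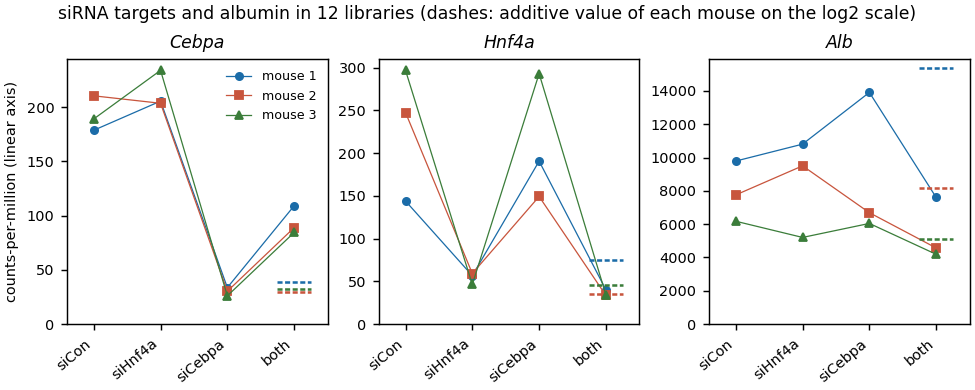
Level of Cebpa, Hnf4a and Alb in each library (y axis: counts-per-million, linear), by siRNA group on the x axis ("both" is the double knockdown), with 1 line per mouse. Dashes mark the level that additive log2 effects would give in each mouse. Cebpa in the double knockdown lies above its dashes in all 3 mice, and Alb lies below its dashes in all 3 mice.

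Across the 15090 genes, the contrast called 300 positive departures (1.99% of those tested) and 276 negative ones (1.83%), together 576 (3.82%), at an adjusted p under 0.05 in edgeR's quasi-likelihood test with mouse as a block. At an unadjusted p under 0.05 there were 2959, and the median departure of all tested genes was -0.01. On the deposited TPM values, a unit relative to each library's total, the calls were 239 positive and 58 negative, and the median of all tested genes was 0.12. All 576 had one sign in the 3 mice, the same mice from which they were called, so this is no independent replication. Positive departures had a median of 0.83 and negative ones a median of -0.59. At least 1 log2 unit was reached by 120 positive and 46 negative departures. The number of calls depended on the pairing by mouse: with no replicate block the same contrast called 8 positive and 5 negative departures, all 13 among the 576, and 433 of the 576 kept an unadjusted p under 0.05. Of the genes named here, Derl3, Gsr, Git1, 2310022B05Rik, Cebpa, Ugt2b35, Cdc40, Cbr1 and Cyp2a4 kept their call without the block and the others lost it. It also depended on single libraries, with 53 positive and 50 negative calls without the siHnf4a library of mouse 2 and 414 and 456 without the siCon library of mouse 1. Leaving out any other library lowered both counts by over 1.5 times, except the siCebpa library of mouse 1 (294 positive, 205 negative). Without all libraries of mouse 2 there were 0 positive and 4 negative calls in edgeR, and 859 and 816 genes at an unadjusted p under 0.05. No sign changed among the 576 when a library or a mouse was left out.

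Additivity can also be read on the linear scale, where the differences in CPM rather than the fold changes add up. On that scale 134 positive and 132 negative departures were called, 250 of them among the 576, and none of the 576 had the opposite sign. The 17 genes taken by the naming rule that kept their call on both scales were Apoa2, Apoc1, Fetub, Abcc2, Pdia4, Cbr1, Cyp2a4, Ugt2b35, Mup17, Prg4, Git1, Sgk3, Vim, 2310022B05Rik, Nnmt, Cdc40 and Gm20431, beside the list members Gsr, Flna, Tagln2, Rpl13, Rpl8 and Rps10. The other named calls did not pass on the linear scale, although 557 of the 576 genes kept an unadjusted p under 0.05 there. For 76 of the 300 positive departures linear additivity gives a level below 0 CPM, which cannot occur, so a positive sign was fixed. This holds for 18 of the 250 shared calls, among them Vim, Prg4 and Nnmt. Cebpa was among the named calls that did not pass on the linear scale. It had 51.6 CPM under linear additivity, 33.4 under log2 additivity and 94.2 ± 13.1 (SD, n = 3) measured.

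In most called genes siCon and siCebpa were the extreme groups. Among genes with a positive departure, siCebpa was the lowest group for 220 and siCon the highest for 225. Among genes with a negative departure, siCon was the lowest group for 256 and siCebpa the highest for 178. Over all 15090 tested genes, siCebpa was lowest for 4148 and highest for 4267, while siCon was highest for 4488 and lowest for 4252. The median log2 fold changes of the positive genes were -0.43 with siHnf4a, -0.74 with siCebpa and -0.33 with both. The corresponding medians of the negative genes were 0.34, 0.56 and 0.30. The group orders and medians of the called genes describe genes chosen by the contrast, which adds siCon and subtracts siCebpa. They are no test of it.

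The departure is also the effect of siCebpa in cells with siHnf4a minus its effect in control cells, 2 differences that share no library. Against siCon, siCebpa changed 2542 genes (16.8% of those tested). Against siHnf4a, the double knockdown changed 1 gene (0.00663%), which was Cebpa at -1.19 log2 with an adjusted p of 0.0129. At an unadjusted p under 0.05 the double knockdown differed from siHnf4a in 1148 genes, and the median standard error was 0.12 in both comparisons. The middle range of log2 differences, from the lower to the upper quartile, was -0.24 to 0.19 for siCebpa against siCon and -0.11 to 0.10 for the double knockdown against siHnf4a. For comparison, siHnf4a changed 4533 genes (30%) and the double knockdown 4448 (29.5%) against siCon, 2 comparisons that share their control libraries.

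**Figure D2:**
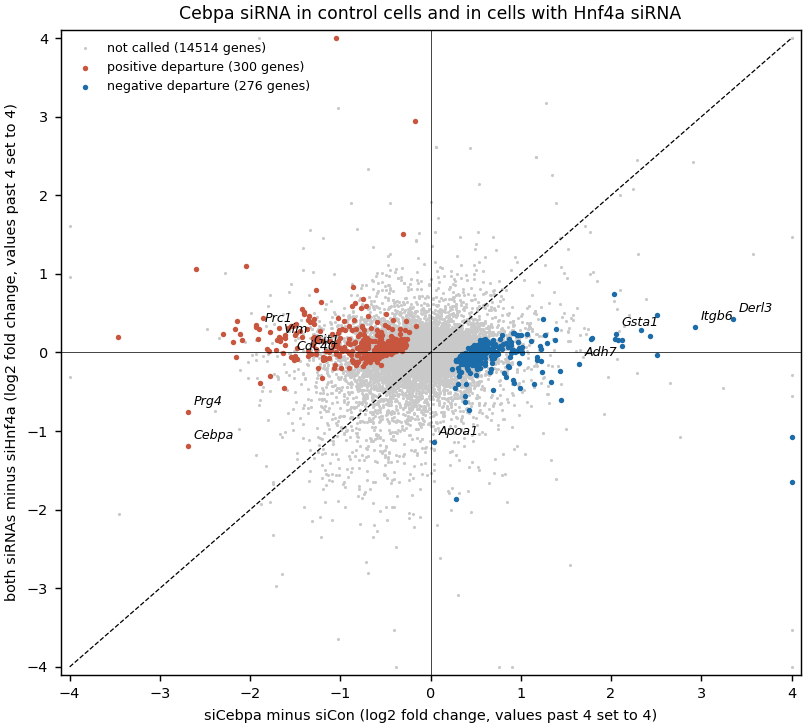
Each point is 1 of 15090 tested genes, with the log2 fold change of siCebpa against siCon on the x axis and of the double knockdown against siHnf4a on the y axis (values past 4 set to 4). Additive genes lie on the dashed diagonal. The 300 positive and 276 negative departures spread along the x axis and mostly stay near 0 on the y axis.

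Genes were sorted by the shape of their departure from the fitted fold changes, without a test. In 123 positive and 85 negative departures, both single knockdowns moved the gene at least 0.5 log2 units in one direction and the double knockdown moved it that way by less than the sum. This shape held 36.1% of the called genes and 7.44% of those tested. None of the 576 moved by more than the sum in that way, against 79 of all tested genes. Another 18 positive and 2 negative departures moved by at least 1 log2 unit in siCebpa and under 0.5 in the other groups. The same pattern with siHnf4a in place of siCebpa held 2 positive departures, and 2 negative ones moved by at least 1 log2 unit in the double knockdown alone. The single knockdowns had opposite effects of at least 0.5 log2 units each in 6 positive departures. The remaining 151 positive and 187 negative departures took none of these shapes. The siCebpa pattern held 3.47% of the called genes and 0.53% of those tested. Opposite single effects of this size held 1.04% of the called genes and 1.398% of those tested. For the siHnf4a pattern these shares were 0.347% and 0.338%, and for the double knockdown alone 0.347% and 0.384%. Apart from the siCebpa pattern, these smaller shapes were about as frequent or less frequent among called genes than among tested genes. The shapes are built from the same fold changes as the contrast, so calling a gene selects for some shapes. Their shares among called genes are therefore a description and no test.

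Genes of thiol and glutathione metabolism made up one group of negative departures. Of 30 tested genes on a list of thiol redox genes of the kind controlled by NRF2, 13 had a negative departure and 0 a positive one, with a median of -0.57 over all 30. DESeq2 called 17 negative and 0 positive, and at an unadjusted p under 0.05 edgeR gave 21 and 0. Each of the 13 was fitted higher than siCon in all 3 knockdown groups. The CPM of Gclc were 517, 621 and 799 in siCon, 2396, 2578 and 2814 with siHnf4a, 1453, 1323 and 1708 with siCebpa and 2563, 2847 and 2572 with both siRNAs. Gclc, the catalytic subunit of glutamate-cysteine ligase, makes the first step of glutathione synthesis. The siCebpa libraries lay between siCon and the groups with siHnf4a, which overlapped each other. Gclc departed by -1.18 ± 0.17 log2 (adjusted p = 0.0068). In siCon Srxn1 was at 518, 432 and 415 CPM, with siHnf4a at 1554, 1855 and 1997, with siCebpa at 983, 1139.7 and 1040.2 and with both at 1886, 2158 and 1705. Srxn1, sulfiredoxin, reduces oxidised peroxiredoxins and followed the same order of groups. For Srxn1 the departure came to -1.12 ± 0.18 log2 (adjusted p = 0.0108). Cbr1 was at 30.99, 30.1 and 32.4 CPM in siCon, at 78.9, 78.7 and 81.3 with siHnf4a, at 56.8, 48.1 and 65.5 with siCebpa and at 73.1, 69.2 and 70.3 with both siRNAs. The departure was -1.03 ± 0.12 log2 (adjusted p = 0.00297) for this carbonyl reductase, whose double knockdown libraries all lay below the siHnf4a libraries. A departure of -1.61 ± 0.24 log2 was found (adjusted p = 0.0079) for its neighbour Cbr3. The quinone reductase Nqo1 departed by -0.93 ± 0.10 (adjusted p = 0.00251), glutathione reductase Gsr by -0.86 ± 0.11 (adjusted p = 0.00569) and the other glutamate-cysteine ligase subunit Gclm by -0.71 ± 0.13 (adjusted p = 0.0172). Gclm lost its call without siCon of mouse 2 or 3, siHnf4a of mouse 2 or double knockdown of mouse 1 or 3. With no replicate block 2 of the 30 were called, and 6 on the linear scale. On log2 TPM 6 of the 13 kept their call, and Gclm did not.

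Of 21 tested glutathione S-transferases, which conjugate glutathione to reactive compounds, 8 had a negative departure and 0 a positive one, with a median of -0.64 (10 and 0 in DESeq2, 14 and 0 at an unadjusted p under 0.05 in edgeR). The CPM of Gsta1 were 80.98, 87.9 and 145 in siCon, 427, 558 and 866 with siHnf4a, 312, 353 and 663 with siCebpa and 509.9, 714 and 928 with both siRNAs. The siCon libraries were the lowest and each mouse kept the order siCon, siCebpa, siHnf4a and double knockdown. For Gsta1 the departure came to -1.81 ± 0.14 log2 (adjusted p = 0.000329), -1.69, -1.65 and -2.10 in the 3 mice. Log2 additivity would place Gsta1 at 2612 CPM and linear additivity at 955, where the mean measured level was 717 ± 209 (SD, n = 3). In siCon Gstm1 was at 255, 253 and 198 CPM, with siHnf4a at 1051, 1204 and 1331, with siCebpa at 607, 467 and 522 and with both at 991, 1201 and 1162. Gstm1 in the double knockdown overlapped siHnf4a and lay above siCebpa in every mouse. The departure of Gstm1 was -1.28 ± 0.20 log2 (adjusted p = 0.0108). Gstm3 was at 3.93, 3.39 and 1.998 CPM in siCon, at 36.6, 31.4 and 40.5 with siHnf4a, at 16.8, 9.56 and 14.7 with siCebpa and at 50.2, 35.5 and 30.9 with both siRNAs. Gstm3 departed by -2.05 ± 0.30 log2 (adjusted p = 0.00755), with -1.62, -1.30 and -3.21 by mouse. Gsta2 (-1.92), Gm3776 (-1.60) and Gm10639 (-1.96) lie beside Gsta1 in the same cluster on chromosome 9, and estimated counts can be divided among such near-identical copies, so each of their values is uncertain. With no replicate block 0 of the 21 were called (edgeR, 8 at an unadjusted p under 0.05), and 2 on the linear scale. On log2 TPM 5 of the 8 kept their call.

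Among 56 tested cytochromes P450 and other phase I enzymes, which oxidise or hydrolyse drugs, steroids and alcohols, 8 had a negative departure and 0 a positive one, and the median was -0.59 (12 and 0 in DESeq2, 21 and 0 at an unadjusted p under 0.05 in edgeR). The CPM of Cyp2a4 were 140.3, 143 and 131 in siCon, 553, 572 and 575 with siHnf4a, 366, 346 and 266 with siCebpa and 463, 537 and 435 with both siRNAs. Cyp2a4, a steroid hydroxylase, rose in all 3 knockdown groups. For Cyp2a4 the departure came to -1.48 ± 0.14 log2 (adjusted p = 0.0011). Its double knockdown was below siHnf4a in each mouse. The departure came to -1.67 ± 0.25 log2 (adjusted p = 0.0079) for the near-identical Cyp2a5, the coumarin hydroxylase, and counts can be divided between the pair. In siCon Adh7 was at 0.794, 1.01 and 1.06 CPM, with siHnf4a at 38.8, 60.7 and 78.4, with siCebpa at 2.38, 2.57 and 4.12 and with both at 29.7, 54.9 and 82.7. Adh7, a dehydrogenase of retinol and other alcohols, rose under siHnf4a by 5.94 log2 and under siCebpa by 1.65. Adh7 departed by -1.79 ± 0.25 log2 (adjusted p = 0.00638). On the linear scale its additive level was 61.4 CPM against a measured mean of 55.8 ± 26.5 (SD, n = 3), so its departure was called for fold changes only. Adh1 was at 174, 179 and 154 CPM in siCon, at 347, 311 and 258 with siHnf4a, at 249.7, 154 and 278 with siCebpa and at 214, 190.1 and 150.4 with both siRNAs. The departure was -1.15 ± 0.26 log2 (adjusted p = 0.0401) for this main hepatic alcohol dehydrogenase, a call kept in 1 of 12 fits that left out a library, the one without the siCebpa library of mouse 2. With no replicate block 1 of the 56 was called, and 3 of the 8 kept their call on the linear scale. On log2 TPM Cyp2a4 and Cyp2a5 kept theirs and the other 6 did not, with Adh7 at -0.50.

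Conjugating enzymes beyond glutathione gave single calls. Of 24 tested UDP-glucuronosyl- and sulfotransferases and related enzymes, 2 had a negative and 1 a positive departure (12.5%, beside 3.82% of all tested genes). The CPM of Ugt2b35 were 99.98, 87.3 and 101 in siCon, 292, 269 and 219 with siHnf4a, 221, 201 and 229 with siCebpa and 253, 259 and 232 with both siRNAs. Ugt2b35, a glucuronosyltransferase, rose in each knockdown group, and the siHnf4a libraries overlapped both other knockdown groups. The departure of Ugt2b35 was -1.24 ± 0.14 log2 (adjusted p = 0.00325). A departure of -0.76 ± 0.18 log2 was found (adjusted p = 0.0454) for Ugt2b34, a call kept in 1 of 12 fits that left out a library (siCebpa of mouse 2) and lost with RLE size factors and on log2 TPM. In siCon Nnmt was at 6.78, 8.83 and 9.23 CPM, with siHnf4a at 2.11, 2.47 and 3.86, with siCebpa at 3.11, 5.402 and 5.31 and with both at 2.74, 3.68 and 6.57. Nnmt, which methylates nicotinamide, fell in all 3 knockdown groups, least under siCebpa (-0.87 log2). For Nnmt the departure came to 1.46 ± 0.27 log2 (adjusted p = 0.0191), a call lost without the siCon or siHnf4a library of mouse 2 or the siCebpa or double knockdown library of mouse 3. The exporter Abcc2, which carries glutathione conjugates into bile, departed by -0.51 ± 0.10 (adjusted p = 0.022), and its call was lost without any of 7 libraries (siCon, siHnf4a or double knockdown of mouse 2, siHnf4a or double knockdown of mouse 1, siCebpa or double knockdown of mouse 3). On log2 TPM the sign of Abcc2 turned, to 0.053.

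**Figure D3:**
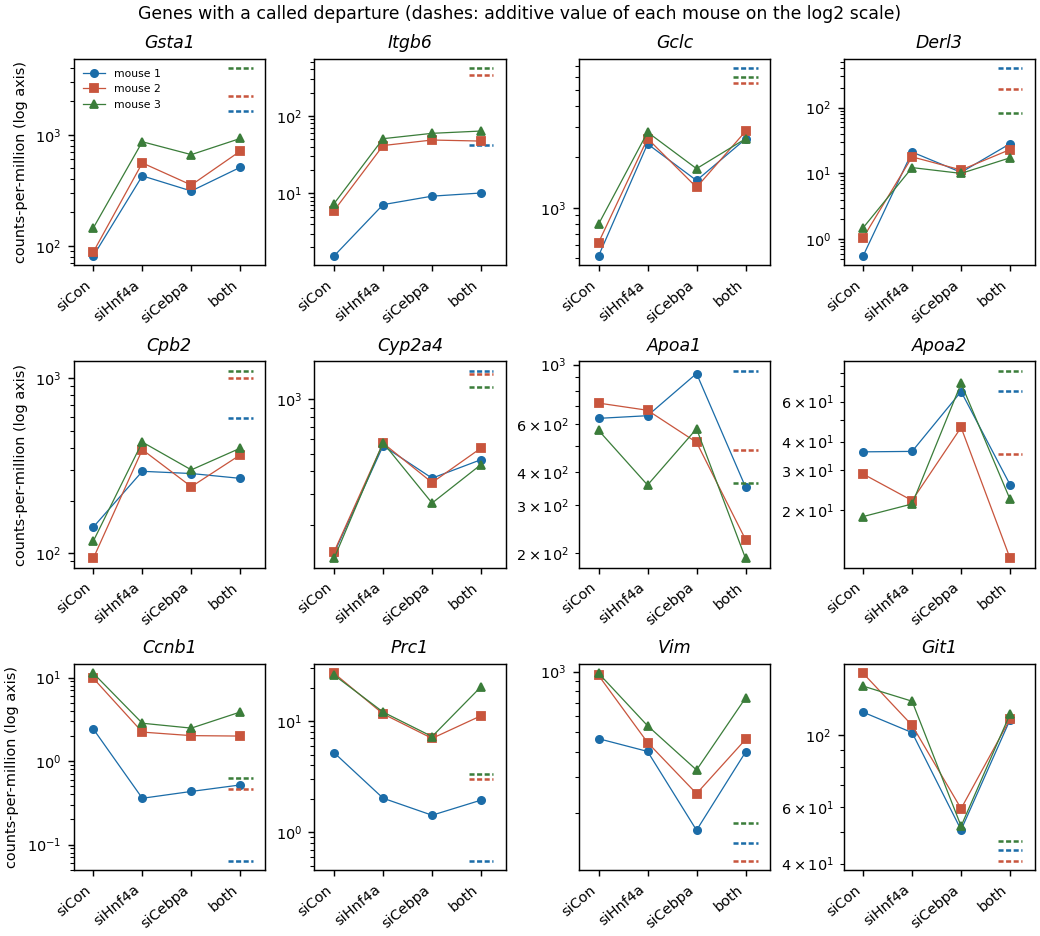
Level of 12 named genes in each library (y axes: counts-per-million, log scale), by siRNA group on the x axis ("both" is the double knockdown), with 1 line per mouse. Dashes mark the level that additive log2 effects would give in each mouse. Gsta1, Itgb6, Gclc, Derl3, Cpb2, Cyp2a4, Apoa1 and Apoa2 lie below their dashes and Ccnb1, Prc1, Vim and Git1 above them in all 3 mice.

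Chaperones and folding enzymes of the endoplasmic reticulum formed another group of negative departures. Of 32 tested genes of the endoplasmic reticulum stress response, 9 had a negative departure and 0 a positive one, with a median of -0.24 over the list (10 and 0 in DESeq2, 16 and 0 at an unadjusted p under 0.05 in edgeR). Derl3 was at 0.555, 1.05 and 1.49 CPM in siCon, at 21.1, 17.9 and 12.3 with siHnf4a, at 10.4, 11.3 and 10 with siCebpa and at 28.3, 23.1 and 17.3 with both siRNAs. Derl3 helps to pass misfolded proteins from the reticulum to degradation. Its siCon libraries were far below every other library, and the siCebpa libraries were below both groups with siHnf4a. The departure of Derl3 was -2.93 ± 0.37 log2 (adjusted p = 0.00512), and it was -3.61, -2.96 and -2.19 in the 3 mice. Linear additivity gave 26.6 CPM against a measured mean of 22.9 ± 5.51 (SD, n = 3), so this departure, too, was called for fold changes only. The CPM of Creld2 were 15.4, 15.4 and 17.6 in siCon, 44.9, 42.3 and 42.3 with siHnf4a, 33.02, 30.7 and 31.2 with siCebpa and 54.2, 50.2 and 46.4 with both siRNAs. Creld2, a stress-induced resident of the reticulum, was highest in the double knockdown in all mice and still short of the sum. Creld2 departed by -0.75 ± 0.11 log2 (adjusted p = 0.00831). In siCon Pdia4 was at 91.7, 74.3 and 95.6 CPM, with siHnf4a at 187, 179.7 and 201, with siCebpa at 181, 149.6 and 175 and with both at 216, 207 and 237. The departure came to -0.74 ± 0.10 log2 (adjusted p = 0.00597) for the disulfide isomerase Pdia4, and -1.09 ± 0.20 (adjusted p = 0.0198) for the co-chaperone Sdf2l1, whose call was lost without any of 7 libraries (siCon, siHnf4a, siCebpa or double knockdown of mouse 2, siHnf4a of mouse 1, siCebpa or double knockdown of mouse 3). The smaller departures were those of Hsp90b1 (-0.62), Dnajb9 (-0.53), Hspa5 (-0.47), Pdia6 (-0.46) and Hyou1 (-0.43), whose calls held in 1 or 2 of the 12 fits that left out a library. With no replicate block 1 of the 32 was called, and 1 on the linear scale. On log2 TPM Derl3, Creld2 and Pdia4 kept their call and the other 6 did not, and Hsp90b1 lost it with RLE size factors too.

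Promoters of these genes were searched for the endoplasmic reticulum stress response element, a sequence known to be bound by ATF6 with NF-Y. It was searched as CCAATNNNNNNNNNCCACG on both strands, in the RefSeq windows (GRCm38.p6) from 250 bases before to 50 bases after each start site. It was found in 5 of the 8 genes with a negative departure that have a window (62.5%), in 4 of 19 other genes of the list (21.1%) and in 19 of 10744 tested genes (0.177%). The 5 windows are shown because they share the element and the direction of departure. Capitals mark the element, which is read on the opposite strand in the first 3:
Derl3 (chr10:75893237-75893266, + strand): tctacCGTGGGACTTCCCCATTGGctagcc
Creld2 (chr15:88819515-88819544, + strand): cttctCGTGGCGAGCCTCAATTGGtccaca
Hsp90b1 (chr10:86705527-86705556, - strand): gagtgCGTGGTGAGGCACGATTGGtgagtt
Hspa5 (chr2:34772020-34772049, + strand): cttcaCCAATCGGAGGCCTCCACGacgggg
Pdia6 (chr12:17266486-17266515, + strand): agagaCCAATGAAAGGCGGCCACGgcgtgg
The element contains a CCAAT box, which alone was in all 8, in 14 of the 19 other genes of the list (73.7%) and in 43.0% of tested genes. The core of the antioxidant response element, TGACNNNGC on either strand, was in 16.9% of tested genes. Among the thiol redox genes it was in 5 of 11 called members with a window (45.5%) and in 7 of 15 others (46.7%). Among the glutathione S-transferases it was in 1 of 7 called members (14.3%) and in 3 of 12 others (25%).

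Secreted liver proteins were read on 3 lists, of which 10.3% (apolipoproteins), 3.03% (carriers and inhibitors) and 7.14% (coagulation) were called in either direction, beside 3.82% of all tested genes. The 15 hepatocyte markers, which hold some of the same genes, had a median departure of -0.49, with 3 above 0 and 2 called negative (Cyp2e1 and Apoa1). Their median log2 fold changes were -0.15 with siHnf4a, -0.23 with siCebpa and -0.66 with both, and their sums were 13760 to 20081 CPM, 12905 to 20043 and 9728 to 13848 in these groups. The part of this marker level in the negative departures was not tested. Of 29 tested apolipoproteins and lipoprotein assembly genes, 3 had a negative departure and 0 a positive one, around a list median of -0.05 (3 and 0 in DESeq2, 5 and 1 at an unadjusted p under 0.05 in edgeR). Apoa1 was at 631, 719 and 569.9 CPM in siCon, at 646, 677 and 357 with siHnf4a, at 926, 515 and 578 with siCebpa and at 351, 224 and 191 with both siRNAs. Apoa1, the main protein of high density lipoprotein, was lowest in the double knockdown in every mouse. It fell there by 1.38 log2 relative to siCon, while its changes in siHnf4a (-0.24, adjusted p = 0.4) and siCebpa (0.03, adjusted p = 0.93) missed the threshold. The departure of Apoa1 was -1.17 ± 0.28 log2 (adjusted p = 0.0475), and the call was kept in 2 of 12 fits that left out a library (siHnf4a of mouse 3, siCebpa of mouse 2). It was also lost in DESeq2, with RLE size factors, with the stricter filter and on log2 TPM. The CPM of Apoa2 were 36.1, 28.8 and 18.7 in siCon, 36.2, 22.05 and 21.3 with siHnf4a, 66.3, 46.2 and 72.01 with siCebpa and 25.9, 12.3 and 22.3 with both siRNAs. Apoa2, another high density lipoprotein component, rose in siCebpa and its double knockdown libraries did not overlap siCebpa. Apoa2 departed by -1.55 ± 0.32 log2 (adjusted p = 0.0297), a call kept in 5 of 12 such fits and lost without siCon of mouse 3, siHnf4a or double knockdown of mouse 1 or 2, or siCebpa of mouse 2 or 3, and on log2 TPM. The departure was -1.15 ± 0.21 log2 (adjusted p = 0.0193) for Apoc1, which slows the clearance of lipoprotein remnants, a call lost without siCon of mouse 2 or 3, or siHnf4a or double knockdown of mouse 1 or 2.

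Of 33 tested plasma carriers and protease inhibitors, 1 had a negative departure and 0 a positive one (3 and 0 in DESeq2, 6 and 0 at an unadjusted p under 0.05 in edgeR). The edgeR call was the fetuin Fetub. In siCon Fetub was at 89.4, 51.2 and 67.98 CPM, with siHnf4a at 147, 113 and 114, with siCebpa at 118, 68.7 and 85.6 and with both at 100.2, 79.6 and 75.3. Fetub rose most under siHnf4a and was lower in the double knockdown than in siHnf4a in each mouse. The departure of Fetub was -0.93 ± 0.14 log2 (adjusted p = 0.0102), with -0.95, -0.93 and -0.93 in the 3 mice. Among 28 tested coagulation and fibrinolysis genes, 1 departed each way. Cpb2 was at 141, 93.8 and 118 CPM in siCon, at 295, 392 and 433 with siHnf4a, at 286, 241 and 300.2 with siCebpa and at 268, 366 and 399 with both siRNAs. Cpb2, a carboxypeptidase that slows clot lysis, rose in all 3 knockdown groups. Cpb2 departed by -1.34 ± 0.25 log2 (adjusted p = 0.0196), a call lost without siCon of mouse 2 or 3, siHnf4a of mouse 2 or double knockdown of mouse 3, and on log2 TPM. The CPM of Cyp2e1 were 2.66, 0.685 and 0.723 in siCon, 3.02, 1.28 and 0.452 with siHnf4a, 3.37, 0.858 and 0.797 with siCebpa and 0.796, 0.303 and 0.172 with both siRNAs. Cyp2e1 was lowest in the double knockdown in every mouse, at levels near the filter. For Cyp2e1 the departure came to -2.15 ± 0.42 log2 (adjusted p = 0.0242), a call kept in 4 of 12 fits that left out a library (siCon of mouse 1 or 3, siHnf4a of mouse 3, siCebpa of mouse 2) and lost on log2 TPM (-0.71). Among 9 tested major urinary proteins 22.2% were called, beside 3.82% of all tested genes. Mup9 departed by -1.07 ± 0.17 (adjusted p = 0.0111) and Mup17 by -1.45 ± 0.30 (adjusted p = 0.0287). These genes are near-identical, so their counts are uncertain, and the call of Mup17 was kept in 2 of 12 such fits (siCon of mouse 1, siCebpa of mouse 1). Other lists overlap with genes named above. Of 26 tested C/EBPA-dependent genes 3 departed negatively (Cyp2e1, Apoa1 and Adh1), and of 28 tested HNF4A-dependent genes Apoa2 departed negatively and Ucp2 positively. These were 11.5% and 7.14% of the lists, beside 3.82% of all tested genes.

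Several of the largest negative departures belonged to genes not typical of hepatocytes. In siCon Itgb6 was at 1.55, 5.97 and 7.36 CPM, with siHnf4a at 7.12, 41.3 and 50.7, with siCebpa at 9.16, 48.7 and 59.4 and with both at 10.1, 47.2 and 63.6. Itgb6, an integrin subunit of epithelia that activates TGF-beta, was several times higher in every knockdown group than in siCon in each mouse, and the 3 knockdown levels of a mouse lay close together. Mouse 1 was below mice 2 and 3 in all groups. The departure of Itgb6 was -2.61 ± 0.14 log2 (adjusted p = 2.98e-05), the smallest adjusted p of the genes named, and it was -2.01, -2.82 and -2.67 by mouse. Trdc was at 1.39, 4.52 and 7.48 CPM in siCon, at 8.79, 38.5 and 60.3 with siHnf4a, at 8.299, 22 and 32.8 with siCebpa and at 10.8, 42.3 and 81.02 with both siRNAs. A departure of -2.04 ± 0.22 log2 was found (adjusted p = 0.00251) for Trdc, annotated as the constant region of the T cell receptor delta chain, which overlaps Trdv5 and Gm43434 on the opposite strand. Of the 12 T and NK cell markers 11 were below the filter. The CPM of Il1f9 were 7.34, 3.91 and 5.697 in siCon, 59.02, 99.8 and 141 with siHnf4a, 18.4, 29.4 and 24.4 with siCebpa and 72.1, 132 and 127 with both siRNAs. The departure came to -1.87 ± 0.39 log2 (adjusted p = 0.0298) for the interleukin-1 family cytokine Il1f9, and -2.03 ± 0.40 (adjusted p = 0.0235) for the chemokine Ccl5, which stayed at or under 3.01 CPM. Il1f9 kept its call in 4 of 12 fits that left out a library (siCon, siHnf4a or siCebpa of mouse 1, siCebpa of mouse 3) and Ccl5 in 5 (siCon of mouse 1 or 3, siCebpa of mouse 1 or 3, double knockdown of mouse 1). On log2 TPM, where Itgb6 stood at -1.72, Ccl5 at -1.33, Trdc at -1.30 and Il1f9 at -1.59, Itgb6 and Ccl5 kept their calls and Trdc and Il1f9 lost them. Ccl5 and Il1f9 were the 2 called genes of 30 tested NF-kB chemokines and interleukin-1 family genes (6.67%, beside 3.82% of all tested genes). The list as a whole lay the other way, with a median of 0.26 and 23 of the 30 members above 0.

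The genes of the cytosolic ribosome were added as a list after the values had been seen. Of 80 tested, 46 had a negative departure and 1 a positive one, with a median of -0.48. The called share was 58.75%, beside 3.82% of all tested genes. Their median log2 fold changes were 0.11 with siHnf4a, 0.53 with siCebpa and 0.15 with both. Rpl13 departed by -0.65 ± 0.09 (adjusted p = 0.00689) and Rpl8 by -0.44 ± 0.09 (adjusted p = 0.0309), both encoding subunit proteins, with calls kept in 12 and 2 of the 12 fits that left out a library. Rps10 was the exception at 1.24 ± 0.17 (adjusted p = 0.00638), with -1.27 log2 in siCebpa. DESeq2 called 64 negative and 1 positive, RLE size factors gave 46 negative calls, and 42 of the 47 calls were kept on the linear scale. The count depended on the unit and the pairing: with no replicate block 0 of the 80 were negative calls (edgeR, 46 at an unadjusted p under 0.05), and on deposited TPM values 5 were, Rpl8 not among them.

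**Figure D4:**
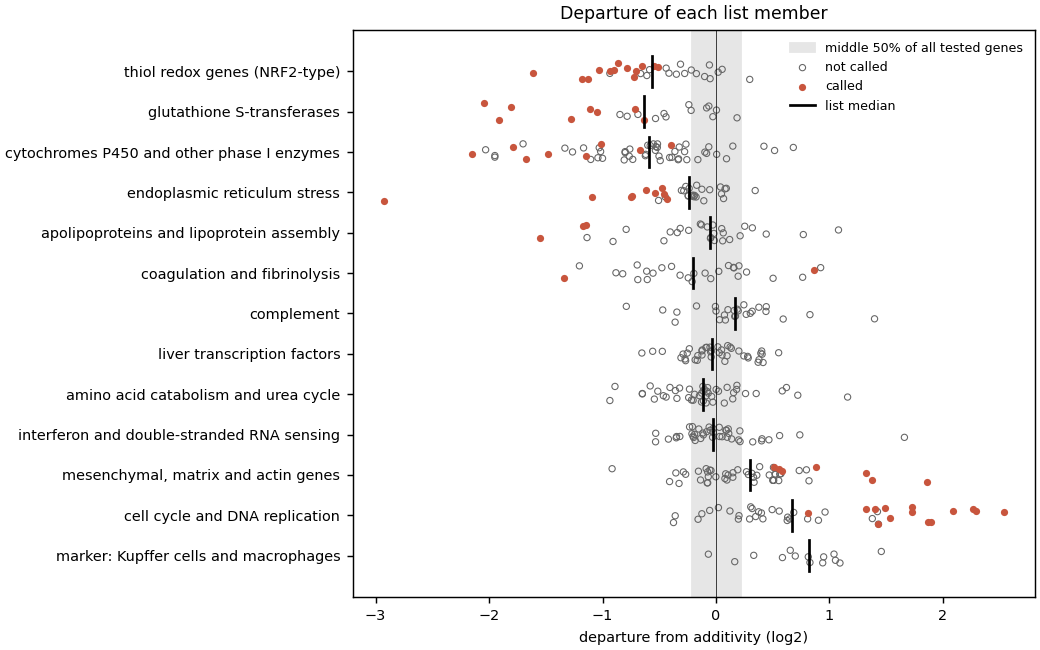
Departure of every tested member of 13 lists (x axis: log2), with 1 row per list, called genes filled and list medians as bars. The grey band holds the middle 50% of all tested genes. Called members of the redox, transferase, phase I and reticulum lists lie below 0, and those of the cell cycle and mesenchymal lists above 0.

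Positive departures included genes of cell division. Of 42 tested genes of the cell cycle and DNA replication, 14 had a positive departure and 0 a negative one, with a median of 0.67 over the list (19 and 1 in DESeq2, 28 and 2 at an unadjusted p under 0.05 in edgeR). All 14 were fitted lower than siCon in each knockdown group. In siCon Ccnb1 was at 2.42, 9.797 and 11.3 CPM, with siHnf4a at 0.358, 2.22 and 2.84, with siCebpa at 0.432, 2.02 and 2.48 and with both at 0.517, 1.99 and 3.87. Ccnb1, the cyclin that takes cells into mitosis, was lowest in mouse 1 in every group. In mice 2 and 3 the knockdown libraries were all below the siCon libraries. The departure of Ccnb1 was 2.53 ± 0.29 log2 (adjusted p = 0.00311), and it was 2.72, 2.08 and 2.58 in the 3 mice. Prc1 was at 5.197, 26.9 and 25.9 CPM in siCon, at 2.03, 11.6 and 12.05 with siHnf4a, at 1.43, 6.99 and 7.26 with siCebpa and at 1.95, 11.2 and 20.4 with both siRNAs. The departure was 2.20 ± 0.27 log2 (adjusted p = 0.00453) for Prc1, which bundles microtubules of the central spindle and is outside the list. The CPM of Mki67 were 7.06, 37.2 and 39.2 in siCon, 2.82, 15.8 and 20.1 with siHnf4a, 1.51, 11.7 and 12.3 with siCebpa and 1.87, 14.2 and 28.6 with both siRNAs. A departure of 1.87 ± 0.31 log2 was found (adjusted p = 0.013) for the proliferation marker Mki67, a call lost without the siCon or siHnf4a library of mouse 2. In siCebpa the 3 values of Prc1 and of Mki67 were the lowest of their mouse. In siCon Plk1 was at 3.97, 17.6 and 15.99 CPM, with siHnf4a at 1.43, 4.73 and 7.81, with siCebpa at 1.21, 4.46 and 4.205 and with both at 1.23, 5.11 and 10.3. The departure came to 2.09 ± 0.34 log2 (adjusted p = 0.0119) for the mitotic kinase Plk1, a call lost without siHnf4a of mouse 2. Ccnb2, another mitotic cyclin, departed by 2.26 ± 0.37 (adjusted p = 0.0124), a call lost without siCon of mouse 2.

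The remaining cell cycle calls were Bub1 (2.29), Bub1b (1.89), Ccna2 (1.72), Foxm1 (1.72), Top2a (1.54), Cdk1 (1.49), Rrm2 (1.43), Aurka (1.4), Ccnd1 (1.32) and Mcm2 (0.81). Ccnd1, the cyclin of the first gap phase, departed with an adjusted p of 0.00438 and Mcm2, a replication helicase subunit, with 0.0391. When 1 library was left out, Ccnd1 and Top2a kept their call in all 12 fits, Ccna2 and Bub1b in 11 (lost without siHnf4a of mouse 2), Cdk1 in 10 (lost without siCon or siHnf4a of mouse 2), Rrm2 in 9, Foxm1 in 8, Aurka in 3 and Mcm2 in 2. The call of Bub1, a checkpoint kinase at 0.199 to 5.14 CPM, was kept in 2 of 12 fits that left out a library (siCebpa of mouse 2, double knockdown of mouse 1). Anln, an actin-binding protein of the cleavage furrow also outside the list, departed by 1.62 ± 0.26 (adjusted p = 0.0109). On log2 TPM 7 of the 14 kept their call, while Ccnb1 (1.55), Mki67 (1.19), Bub1 (1.17), Bub1b (0.75), Cdk1, Top2a and Aurka lost it, as did Anln. Linear additivity would place Ccnb1, Prc1, Mki67 and Plk1 below 0 CPM in the double knockdown, a level that cannot occur, and on that scale 0 of the 42 genes passed the threshold (limma, with 30 positive and 2 negative at an unadjusted p under 0.05). With no replicate block 0 of the 42 were called either (edgeR, with 2 positive and 1 negative at an unadjusted p under 0.05).

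The short TTTGAA core of the cell cycle genes homology region, known to be bound by the DREAM complex, was searched in the same promoter windows on both strands. It was in 8 of the 11 called cell cycle genes with a window (72.7%), in 2 of 24 other members of the list (8.33%) and in 14.8% of tested genes. A CCAAT box was in all 11, in 15 of the 24 (62.5%) and in 43.0% of tested genes. The 4 genes with the largest departures among the 8 are shown, with TTTGAA in capitals:
Ccnb2 (chr9:70421533-70421562, - strand): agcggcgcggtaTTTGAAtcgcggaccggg
Plk1 (chr7:122159453-122159482, + strand): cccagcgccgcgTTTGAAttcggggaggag
Bub1b (chr2:118598231-118598260, + strand): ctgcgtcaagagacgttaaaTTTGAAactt
Mki67 (chr7:135716460-135716489, - strand): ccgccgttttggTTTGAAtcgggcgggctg
A match of letters is a description of the window and not a bound site.

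Called mesenchymal, matrix and actin genes all departed positively. Of 50 tested, 7 had a positive departure and 0 a negative one, with a median of 0.30 (10 and 0 in DESeq2, 17 and 2 at an unadjusted p under 0.05 in edgeR). Vim was at 465, 957 and 981 CPM in siCon, at 402, 445 and 539 with siHnf4a, at 163, 248 and 325 with siCebpa and at 399, 461 and 739.8 with both siRNAs. Vim encodes vimentin, an intermediate filament of mesenchymal and dedifferentiating cells, and was lowest in siCebpa in every mouse. The siHnf4a and double knockdown libraries overlapped. Vim departed by 1.86 ± 0.22 log2 (adjusted p = 0.0036), with 1.5, 2.00 and 2.05 by mouse. The CPM of Spp1 were 43.8, 147 and 207 in siCon, 28.2, 131 and 146 with siHnf4a, 15.99, 75.6 and 89.8 with siCebpa and 18.4, 97.98 and 146 with both siRNAs. The departure was 0.88 ± 0.18 log2 (adjusted p = 0.03) for osteopontin (Spp1), which is also a cholangiocyte marker and kept its call in 3 of 12 fits that left out a library (siCon of mouse 1 or 2, double knockdown of mouse 1). Snai2, a transcriptional repressor of epithelial genes at 0.62 to 2.18 CPM, departed by 1.32 ± 0.29 (adjusted p = 0.033) and kept its call in 1 such fit (siCon of mouse 1). Snai2 also lost it in DESeq2 and on log2 TPM (0.73). The actin-binding Flna and Tagln2 departed by 0.58 and 0.55 and the repressor Zeb1 by 0.51, calls that held in 2, 5 and 0 of the 12 fits. On log2 TPM 5 of the 7 kept their call, Zeb1 not among them. Of 32 tested junction and keratin genes, the junctional plakoglobin Jup departed alone (3.1%, beside 3.82% of all tested genes). Its departure was 0.89 ± 0.19 (adjusted p = 0.0309), a call kept in 3 of 12 fits (siCon of mouse 1, siHnf4a of mouse 1, double knockdown of mouse 2). With no replicate block 1 of the 50 mesenchymal genes was called, and 4 on the linear scale.

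Markers of Kupffer cells had a median departure above 0 and no call. Of the 14 tested, 0 were called in edgeR or DESeq2, 2 had an unadjusted p under 0.05, 13 were above 0 and the median was 0.82. The member below 0 was Cd68 (-0.07), which stood at 0.54 log2 with siHnf4a (adjusted p = 0.0554). The other 13 summed to 7.94 to 24.5 CPM in siCon, 3.99 to 11.8 with siHnf4a, 4.8 to 11.4 with siCebpa and 4.67 to 8.75 with both, a sum taken after the values were seen. The median log2 fold changes of all 14 were -0.91 with siHnf4a, -1.17 with siCebpa and -1.11 with both. Endothelial markers (14 tested, 0 called in edgeR, 1 in DESeq2, median 0.34) and stellate cell markers (13 tested, 0 called in edgeR, 1 in DESeq2, median 0.13) were nearer to 0, with 1 and 2 members at an unadjusted p under 0.05. Of 7 tested cholangiocyte markers Spp1 was called, and their median was 0.33. The part of such cells in the positive departures was not tested.

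Other large positive departures were those of Prg4 and Serpinb9b, which fell in both single knockdowns, and of Gm20431. In siCon Prg4 was at 46.3, 62.1 and 88.99 CPM, with siHnf4a at 19.1, 17.9 and 15.2, with siCebpa at 13.3, 8.404 and 7.88 and with both at 6.56, 8.48 and 17.3. Prg4, a secreted lubricating proteoglycan, was highest in siCon without overlap. The departure of Prg4 was 1.93 ± 0.47 log2 (adjusted p = 0.0485), but it was 0.26, 1.80 and 3.67 in the 3 mice, and the call was kept in 2 of 12 fits that left out a library (siCon of mouse 1, siCebpa of mouse 1) and lost on log2 TPM. Serpinb9b was at 38.9, 167 and 188 CPM in siCon, at 11.7, 39.8 and 66.1 with siHnf4a, at 20.1, 58.6 and 72.6 with siCebpa and at 13.2, 43.9 and 115 with both siRNAs. A departure of 1.72 ± 0.30 log2 was found (adjusted p = 0.0158) for the serine protease inhibitor Serpinb9b, a call lost without siCon or siHnf4a of mouse 2. The CPM of Gm20431 were 9.44, 18.4 and 16.7 in siCon, 7.12, 5.68 and 7.85 with siHnf4a, 7.56, 10.2 and 19.5 with siCebpa and 17.7, 17.01 and 25.05 with both siRNAs. Gm20431 passed the threshold against siCon with siHnf4a (-1.08 log2) and in neither other group. For Gm20431 the departure came to 1.82 ± 0.34 log2 (adjusted p = 0.0196), a call lost without siHnf4a or siCebpa of mouse 2 or the double knockdown of mouse 1 or 3. It shares its strand and position with Ube2v1 and Tmem189, so its counts are uncertain.

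Some positive departures belonged to genes that fell by at least 1 log2 unit with siCebpa and lay within 0.5 of control in both groups with siHnf4a. In siCon Git1 was at 118, 156 and 142 CPM, with siHnf4a at 102, 107 and 128, with siCebpa at 50.9, 59.3 and 52.3 and with both at 112, 113 and 117. Git1, a scaffold and GTPase-activating protein of focal adhesions, was lowest in the 3 siCebpa libraries, which did not overlap any other library. It was also lower than siCon with siHnf4a (-0.30 log2, adjusted p = 0.0302) and with both siRNAs (-0.28, adjusted p = 0.0416). The departure of Git1 was 1.37 ± 0.13 log2 (adjusted p = 0.00129), and it was 1.35, 1.46 and 1.31 by mouse. Cdc40 was at 33.2, 29.7 and 32.7 CPM in siCon, at 31.5, 28.1 and 25.9 with siHnf4a, at 12.7, 11.2 and 9.03 with siCebpa and at 26.6, 29.3 and 26.1 with both siRNAs. The departure came to 1.49 ± 0.15 log2 (adjusted p = 0.00135) for Cdc40, a splicing factor, again with no overlap between siCebpa and the rest. The CPM of 2310022B05Rik were 50.8, 65.8 and 64.7 in siCon, 56.3, 59.6 and 73.3 with siHnf4a, 16.4, 16.98 and 15.05 with siCebpa and 46.7, 47.1 and 50.2 with both siRNAs. The departure was 1.51 ± 0.15 log2 (adjusted p = 0.00129) for this uncharacterised gene, with the siCebpa libraries under 20 CPM and all others above 40, although it fell in the double knockdown too (-0.33 log2, adjusted p = 0.0331). In siCon Crct1 was at 11.2, 10.04 and 34.2 CPM, with siHnf4a at 10.6, 14.7 and 33.8, with siCebpa at 4.495, 3.94 and 9.74 and with both at 7.598, 12.3 and 41.8. A departure of 1.42 ± 0.29 log2 was found (adjusted p = 0.0283) for Crct1, a cysteine-rich protein of epithelia, a call kept in 3 of 12 fits that left out a library (siCon of mouse 1, siCebpa of mouse 1, double knockdown of mouse 1) and lost on log2 TPM.

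In 6 called genes the single knockdowns each moved the level by at least 0.5 log2 units, in opposite directions. Sgk3 was at 25.4, 27.7 and 28.1 CPM in siCon, at 44.3, 44.5 and 40.04 with siHnf4a, at 13.3, 13.5 and 9.07 with siCebpa and at 40.6, 41.1 and 39.4 with both siRNAs. The kinase Sgk3 rose with siHnf4a, fell with siCebpa and in the double knockdown stood close to its siHnf4a level. Sgk3 departed by 1.10 ± 0.16 log2 (adjusted p = 0.00745). The CPM of Plat were 28.4, 83.2 and 90.5 in siCon, 62.4, 220.0 and 258 with siHnf4a, 16.9, 51.2 and 52.2 with siCebpa and 64.9, 226 and 302 with both siRNAs. The departure came to 0.86 ± 0.15 log2 (adjusted p = 0.0155) for tissue plasminogen activator (Plat), the other called coagulation gene, a call lost without siCon or siHnf4a of mouse 2. Each mouse kept the order siCebpa, siCon and then the groups with siHnf4a, although mouse 1 was below the others throughout. Outside this class, the mitochondrial carrier Ucp2, which overlaps Dnajb13 on the opposite strand, departed by 0.79 ± 0.18 (adjusted p = 0.0351), a call kept in 2 of 12 (siCon of mouse 1, siCebpa of mouse 1).

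The 7-letter word CACCTAC was counted in 3' UTRs because earlier results of these data had linked it to genes lowered by siCebpa, so its counts describe the same libraries. It was in 40 of 294 positive departures with a 3' UTR (13.6%), in 7 of 251 negative ones (2.79%) and in 887 of 12954 tested genes (6.85%). The median 3' UTR was 1472 bases in the positive genes, 294 in the negative ones and 1138 in all, and the words per kb were 0.1, 0.042 and 0.045. The longer CACCTACAG was in 6 positive departures (2.04%) and in 92 of all tested genes (0.71%). Cdc40 held it 12 times, and Git1 and 2310022B05Rik held it 1 time each. For these 3 genes and for Cebpa, 1 window each from the 3' UTR (GRCm38) is shown. The first CACCTAC of each window is in capitals, and the Cdc40 window holds another copy in lower case:
Cdc40 (chr10:40832711-40832740, - strand): ccacccacagtCACCTACagtcacctacag
Git1 (chr11:77507578-77507607, + strand): atcactacctgCACCTACagtgacccaccc
2310022B05Rik (chr8:124636917-124636946, - strand): gaccctccatgCACCTACaggatgctaagc
Cebpa (chr7:35121083-35121112, + strand): ttttgcacctcCACCTACatcccccccccc
Genes with the word had a median log2 fold change of -0.12 in siCebpa against siCon and of 0.01 in the double knockdown against siHnf4a, beside -0.007 and 0.006 for genes without it. Within the positive departures, genes with the word stood at -0.66 in siCebpa and had a median departure of 0.69, and genes without it at -0.75 and 0.84. The siRNA sequences are not in the sources used here, and a match between the word and either siRNA was not tested.

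**Figure D5:**
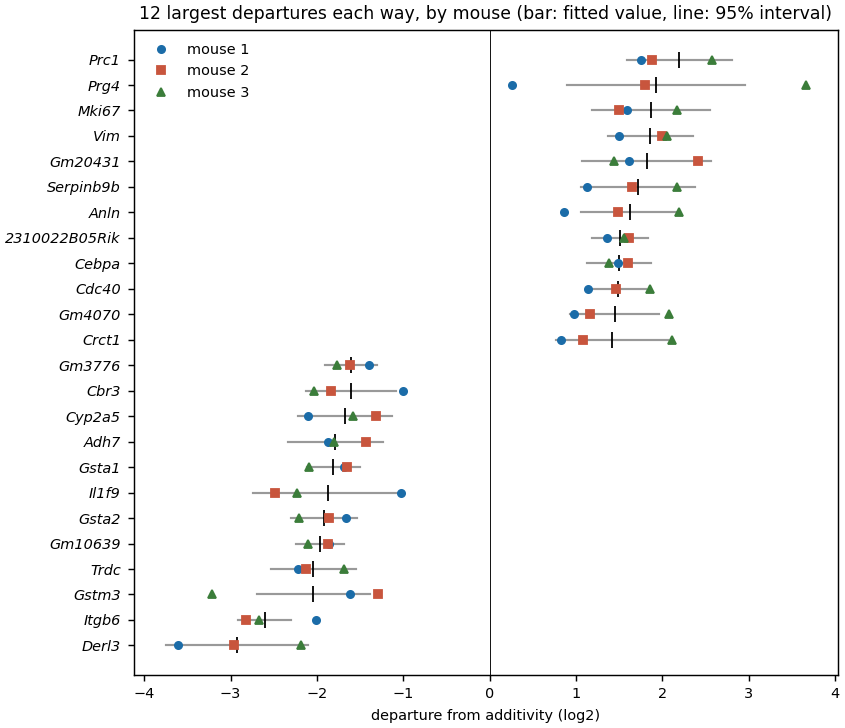
Departure (x axis: log2) in each mouse for the 12 largest positive and 12 largest negative departures with a mean of at least 10 CPM and one sign in the 3 mice. Bars are fitted values and lines are 95% intervals of the fit. Mouse values range from 0.26 to 3.67 for Prg4 and from 1.36 to 1.61 for 2310022B05Rik.

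Many hepatic programs had no called departure in edgeR at this depth. Of all tested genes 3.82% were called, so lists of this length would hold few calls at that share. These were the 41 tested liver transcription factors (median -0.04), 26 complement genes (0.17), 22 acute phase genes (-0.05), 46 genes of amino acid catabolism and the urea cycle (-0.11), 29 of glucose, fructose and glycogen metabolism (-0.27), 34 of fatty acid oxidation and ketogenesis (-0.17) and 35 of lipogenesis and cholesterol synthesis (-0.03). The 42 tested interferon genes (-0.03), 19 clock genes (0.08), 24 glucocorticoid-responsive genes (0.02), 13 mitochondrially encoded genes (-0.01) and 13 genes of the siRNA machinery (0.04) had none either. At an unadjusted p under 0.05 there were 11 members for fatty acid oxidation and ketogenesis (DESeq2 called 0) and 8 for the transcription factors (DESeq2 1), and between 0 and 6 for every other list named here (DESeq2 0 to 3). Of the 6 tested C/EBP family genes Cebpa was the only call. A missed threshold does not show that these effects add up exactly, since the median standard error of a departure was 0.17.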

How the data were processed

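RNA of 12 libraries was sequenced on a BGISEQ-500, per the labels. For each library the authors deposited TPM (transcripts-per-million) and raw estimated counts per gene, also called expected counts, which need not be whole. Trim Galore 0.6.4, kallisto 0.4.6 and the GRCm38.p6 build are named in the submitters' processing notes; which annotation, strand setting or filter was used is not given in the sources used here. Of 55385 gene identifiers, 54487 matched GENCODE M21 with their version and 55144 without it, and 241 (0.00349% of counts) had no symbol.

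Groups came from the sample titles, and the number in a title is a mouse per the series' design text. Residuals of libraries of 1 mouse correlated with r of 0.156 to 0.684 over 18 pairs, and 12 of 12 libraries correlated best with their own mouse. Replicate pairs differed by more than counting error (chi-square per degree of freedom of 18.0 to 133).

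After rounding, edgeR 4.0.16 (R 4.3.3) was used. filterByExpr (at least 0.42 CPM) kept 15090 genes and left 40295 untested. After TMM scaling (factors 0.947 to 1.04), a quasi-likelihood model with mouse and group (6 residual degrees of freedom) gave 2-sided contrasts, with Benjamini-Hochberg adjustment over all tested genes and a threshold of 0.05. A departure is "called" past it, and values after ± are standard errors for log2 values and SDs for CPM. The model was also run on counts simulated from its own fit, with an outcome not reported here. Such counts cannot show how the calls depend on the block or on single libraries. Values per mouse are log2 CPM with a prior count of 2.

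Named genes are Cebpa, Hnf4a and Alb; the 12 largest called departures each way, if the gene had a symbol, one sign in 3 mice and an average of 10 CPM or more; up to 4 called members per list (or, where none was called, the most abundant, not printed here); and up to 4 called genes per shape with the same mean and sign. Some genes that the rule takes are not printed. Further called list members are named outside it, after their values were seen. The contrast and the lists were chosen with earlier results of these data known, and the ribosomal list was added after the values were seen.

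Alternatives were no replicate block, RLE size factors, DESeq2 1.42.0, leaving out the low-count filter, a stricter filter (1 CPM in 3 libraries), limma-trend (limma 3.58.1) on log2 TPM with a pseudocount of 1, a linear scale (CPM over the gene's mean, limma), and leaving out each library or mouse. Promoter windows came from RefSeq tables (10744 tested genes matched) and 3' UTRs from GENCODE M21 (2136 tested genes not searched).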

Additional observations from a re-analysis of the deposited data

Results flagged for a closer look

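In 11 of the 58 called genes taken by the naming rule, the effect of siCebpa against siCon and the effect of the double knockdown against siHnf4a had opposite signs in all 3 mice. The difference between these effects is the departure itself, tested in edgeR above. Negative departures of this kind were those of Cyp2e1 (-2.15; siCebpa 0.28, added to siHnf4a -1.87), Cyp2a4 (-1.48; 1.23 and -0.25), Mup17 (-1.45; 0.99 and -0.45), Cpb2 (-1.34; 1.22 and -0.11), Gstm1 (-1.28; 1.18 and -0.10), Cbr1 (-1.03; 0.86 and -0.17) and Fetub (-0.93; 0.38 and -0.55). Positive departures of this kind were those of Plat (0.86; -0.75 and 0.11), Jup (0.89; -0.70 and 0.18), Nnmt (1.46; -0.87 and 0.59) and Serpinb9b (1.72; -1.29 and 0.42). Except for Cebpa, no gene passed the threshold between the double knockdown and siHnf4a, so none of these second effects was called by itself. Of all 576 called genes 184 (31.9%) had opposite signs in all mice, beside 1141 of the 15090 tested (7.56%). Calls select for a difference between these effects, which favours opposite signs, so the higher share is no separate result. Cpb2 stood at 286, 241 and 300.2 CPM in siCebpa, above its siCon level of 141, 93.8 and 118, while its double knockdown levels were below siHnf4a in each mouse.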

How the results depend on the processing

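Positive and negative departures numbered 300 and 276 as reported. They numbered 8 and 5 with no replicate block (8 of 58 named calls kept), 471 and 442 with DESeq2, 568 and 461 with no filter on low counts, and 134 and 132 on the linear scale. RLE size factors (322 and 268) and the stricter filter (365 and 306) stayed within 1.5 times. On log2 TPM there were 239 and 58, so that 80.5% of calls were positive beside 52.1%; this unit moved the median of all genes to 0.12, the other settings left it within 0.02 of 0, and 1 of the 576 genes, Abcc2, changed sign (0.053). Uncalled Hnf4a stood at 0.0024 on the linear scale (a difference relative to the gene's mean). Without 1 library, positive calls ranged from 53 (siHnf4a of mouse 2) to 414 (siCon of mouse 1) and negative calls from 50 to 456. They were 88 and 72 without siCon of mouse 2, 121 and 87 without siCon of mouse 3, 123 and 130 and 174 and 152 without siHnf4a of mice 1 and 3, 139 and 156 and 109 and 106 without siCebpa of mice 2 and 3, and 118 and 79, 164 and 105, and 92 and 81 without the double knockdown of mice 1, 2 and 3. Without mouse 1 they were 152 and 108, without mouse 2 0 and 4, and without mouse 3 10 and 13. Fewer libraries enter these fits; for the other settings the cause was not tested. On log2 TPM 39 of the 58 named calls were kept. Of the called list members 3 of 9 reticulum genes, 6 of 13 redox genes, 5 of 8 glutathione S-transferases, 2 of 8 phase I enzymes, 1 of 3 apolipoproteins, 7 of 14 cell cycle genes and 5 of 7 mesenchymal genes kept their call there, and 2 other cell cycle genes and 1 other mesenchymal gene were called. With 3 mice, and a median standard error of 0.17, small departures are not detectable.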
